A study of Mus musculus with 6 samples.

Results

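The cytosolic ribosomal protein genes were followed in RNA sequencing of BUMPT cells, an immortalised mouse line derived from the kidney proximal tubule. Members were the protein-coding genes whose symbol is Rpl or Rps plus a number, with Rplp0, Rplp1, Rplp2 and Rpsa, and without the Rps6k kinases and Rps19bp1. Of 91 such symbols in the annotation, 86 were listed among the 11236 gene symbols of the deposited table, and Rpl10l, Rpl36-ps4, Rpl39l, Rpl3l and Rpl9-ps1 were not. The large subunit had 52 members and the small subunit 34, and 77 encode structural proteins of the ribosome, while 9 are paralogs, relatives or retrocopies of another member. All 86 reached the minimum level for testing, an average value of 1 across the 6 libraries.

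There were 3 libraries labelled NC and 3 labelled tRF-Val, all of the same cell line. tRF-Val is short for tRF-Val-TAC-004, a piece of a transfer RNA for valine, and the stated question was which apoptosis gene lies downstream of it. The labels leave NC unexplained, give no dose or time, and do not tell addition of the fragment from its inhibition. Whether libraries of 1 group were grown as separate cultures is not stated either, so p-values cover the spread of these libraries only, and that spread may be technical.

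A cytosolic ribosome holds 1 copy of nearly every one of these proteins, arranged in a large subunit that forms peptide bonds and a small subunit that reads the messenger RNA. Their messenger RNAs are among the most abundant of a growing cell and belong to the TOP class, which starts with a C followed by a run of pyrimidines and whose translation is set by mTOR kinase and the RNA-binding protein LARP1. The kidney proximal tubule is a transport epithelium with a high demand for protein and energy, and its cells divide again after injury.

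The run of pyrimidines can be read in the gene sequences. RefSeq promoters on GRCm38.p6, spanning 250 bases before to 50 after an annotated start, were found for 62 members in 73 entries. A C followed by at least 7 further C or T, a run of at least 8, was searched for in the 100 bases centred on the start. On the sense strand it was present in 78.1% of the member entries and in 28.8% of all 32851 entries, and on the antisense strand in 21.9% and 31.6%. The word CTTTCC, which can lie inside such a run, was in 31.5% of member entries on the sense strand of the same 100 bases and in 4.69% of all entries. On the antisense strand the shares were 2.74% and 4.47%. The word CCGGAAG, the core letters of an ETS factor motif, was in 35.6% of member entries on either strand of the 300 bases, against 8.86% of all entries. Windows of 30 bases are shown for members on which the results below turn: Rps18, Rpl27a and Rps19, which were lowest in 1 library; Rpl22l1, Rpl36a and Rpl37a, which passed the test once NC 3 was left out; and Rpl4, Rpl5 and Rps6, whose fold changes were small. Sequences run 5′ to 3′ on the strand of the gene, and capitals mark the run.
Rps18 on the minus strand, chr17:33955646-33955675: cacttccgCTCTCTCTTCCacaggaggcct
Rpl27a on the plus strand, chr7:109519183-109519212: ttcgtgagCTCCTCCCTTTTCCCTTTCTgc
Rps19 on the plus strand, chr7:24884625-24884654: ccgtcgttCCCTTTCCCCTggctggcagcg
Rpl22l1 on the plus strand, chr3:28805503-28805532: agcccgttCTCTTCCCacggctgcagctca
Rpl36a on the plus strand, chrX:134585673-134585702: ggctctagCCTCTCTCTTTCCgagctgcta
Rpl37a on the plus strand, chr1:72711276-72711305: cattgcgtCCCTTCCTCTTCggacttgggc
Rpl4 on the plus strand, chr9:64173405-64173434: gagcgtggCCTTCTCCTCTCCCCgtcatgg
Rpl5 on the plus strand, chr5:107900500-107900529: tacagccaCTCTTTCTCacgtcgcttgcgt
Rps6 on the minus strand, chr4:86857347-86857376: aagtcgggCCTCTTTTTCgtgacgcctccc
The search required a first C and at least 8 bases, so these traits of the 9 runs follow from it. Their lengths went up to 20 bases, and windows are shown only for members with a run. A match describes letters in the window and does not show which base a transcript starts with. The 51 members with a run had a median log2 fold change of 0.74 and the 11 members with an entry but no run 0.71, and without library NC 3, described below, these were 0.53 and 0.42.

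NC 3 stood apart from the other libraries before any gene was considered. Over 10405 genes its Pearson r was 0.903 with NC 1 and 0.915 with NC 2, while NC 1 and NC 2 had 0.974. Mitochondrially encoded transcripts held 17.5% of its mouse values, against 6.32% and 6.58% in NC 1 and NC 2 and 3.16% to 5.29% in the tRF-Val libraries. Values without NC 3 are therefore given beside many of the results. Of the marker lists, 6 of 6 epithelial genes were listed, and their sum was 625, 634 and 442 across NC and 750.4, 810 and 799 across tRF-Val. Of the 5 that were tested, 0 passed, and groups did not overlap for Krt18, Krt8 and Epcam, all higher in tRF-Val, against 20.3% of all genes. Their log2 fold changes were 0.66, 0.49 and 0.34, and 0.50, 0.28 and 0.28 without NC 3. These 3 had the direction of the ribosomal protein genes, while Pax8 had -0.088. Of the 8 proximal tubule genes only Aqp1 was listed, at 31.3, 27.2 and 8.73 across NC and 25.8, 17.6 and 17.7 across tRF-Val. Of 7 leukocyte markers 5 were listed, without Ptprc and Adgre1, and their sum was 8.57 to 24.8 across NC and 34.9 to 42.2 across tRF-Val, mostly from Cd14. Of 6 fibroblast markers only Pdgfra and Dcn were listed, with sums of 0.850 to 1.26 and 1.01 to 1.76. Cdh5 was the only one of 4 endothelial markers, at 6.25 to 8.03 across NC and 2.72 to 5.02 across tRF-Val, and Clic5 the only one of 5 of synovium and cartilage, at 4.10 to 7.60 and 2.60 to 4.09. The part of any of these in the results was not tested. Values are abundances on a per-length scale, set by the authors to each library, so the depth is unknown.

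Ribosomal protein genes were higher in the tRF-Val libraries as a group, and no single one of them passed the test. All 86 had a positive log2 fold change, taken as mean log2(value + 1) in tRF-Val less that in NC, against 51.1% of all genes tested. The median was 0.69 and the range ran from 0.070 for Rpl4 to 1.76 for Rpl24, beside a median of 0.013 over all genes. By limma with Benjamini-Hochberg adjustment over all 10405 genes, 0 members were called higher and 0 lower, against backgrounds of 0.0577% and 0.202%, and the smallest adjusted p was 0.0630, for Rpl36a. At an unadjusted p under 0.05, 57 members were higher and 0 lower, where 12.2% and 15.6% of all genes were. The 3 tRF-Val values lay above all 3 NC values for 73 members and never below them, against 20.3% and 22.1% of all genes. In bulk RNA, fewer cells of a type and less RNA per cell cannot be told apart.

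Without NC 3 the pattern was smaller and more even. The median fold change of the 86 members was then 0.51, with -0.078 over all genes, and ratios of tRF-Val to NC means ran from 1.06 to 1.95 with a median of 1.44. By limma 6 members were called higher, and 0 lower, where 2.75% and 3.04% of all genes were called, and for 81 members each tRF-Val library was above NC 1 and NC 2, against 24.6% of all genes. The 6 were Rpl22l1, Rpl36a, Rpl37a, Rpl6, Rps29 and Rps4x, of which the last 3 were chosen after their values were seen. Their adjusted p lay between 0.0387 and 0.0496.

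The length of the transcripts moved with the fold change, and most of the group's difference went with it. Listed member transcripts had a median length of 780 bases, weighted by abundance, against 2795 over all genes tested, and 84 of the 86 were shorter than that. Fold change and length had a Spearman's rho of -0.56 across the 10405 genes and -0.30 across the 86 members, which are not independent replicates and share the same libraries. After the trend with length was removed from each library, the median of the members was 0.14 and that of all genes 0.029, and 60 of 86 were positive. Groups then did not overlap for 21 members in the higher direction and 1 in the lower, against 18.9% and 15.7% of all genes. The count in the higher direction was thus not far above its background, and that in the lower direction was below its own. With GC content removed as well, the median was 0.12 and the counts were 22 and 4, against 19.9% and 14.8%. With length removed and NC 3 left out, the median was 0.12 and the counts were 35 and 6, against 28.5% and 20.8%. In that fit limma called 0 members, the 6 named above included, and the smallest adjusted p of a member was 0.0823. Over all genes it called 53 higher and 54 lower. Mitochondrial transcripts moved with the groups too. With them removed and each library scaled to the same total of remaining mouse values, the median was 0.44 beside -0.20 over all genes. That scaling also evened out the mouse totals, which were higher in each tRF-Val library, and its own part was not tested. Groups did not overlap for 58 members higher and 0 lower, against 10.8% and 33.2%. With NC 3 left out as well the counts were 72 and 1, against 14.4% and 46.6%. Whether short transcripts differed between the cells or between the library preparations was not tested.

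**Figure D1:**
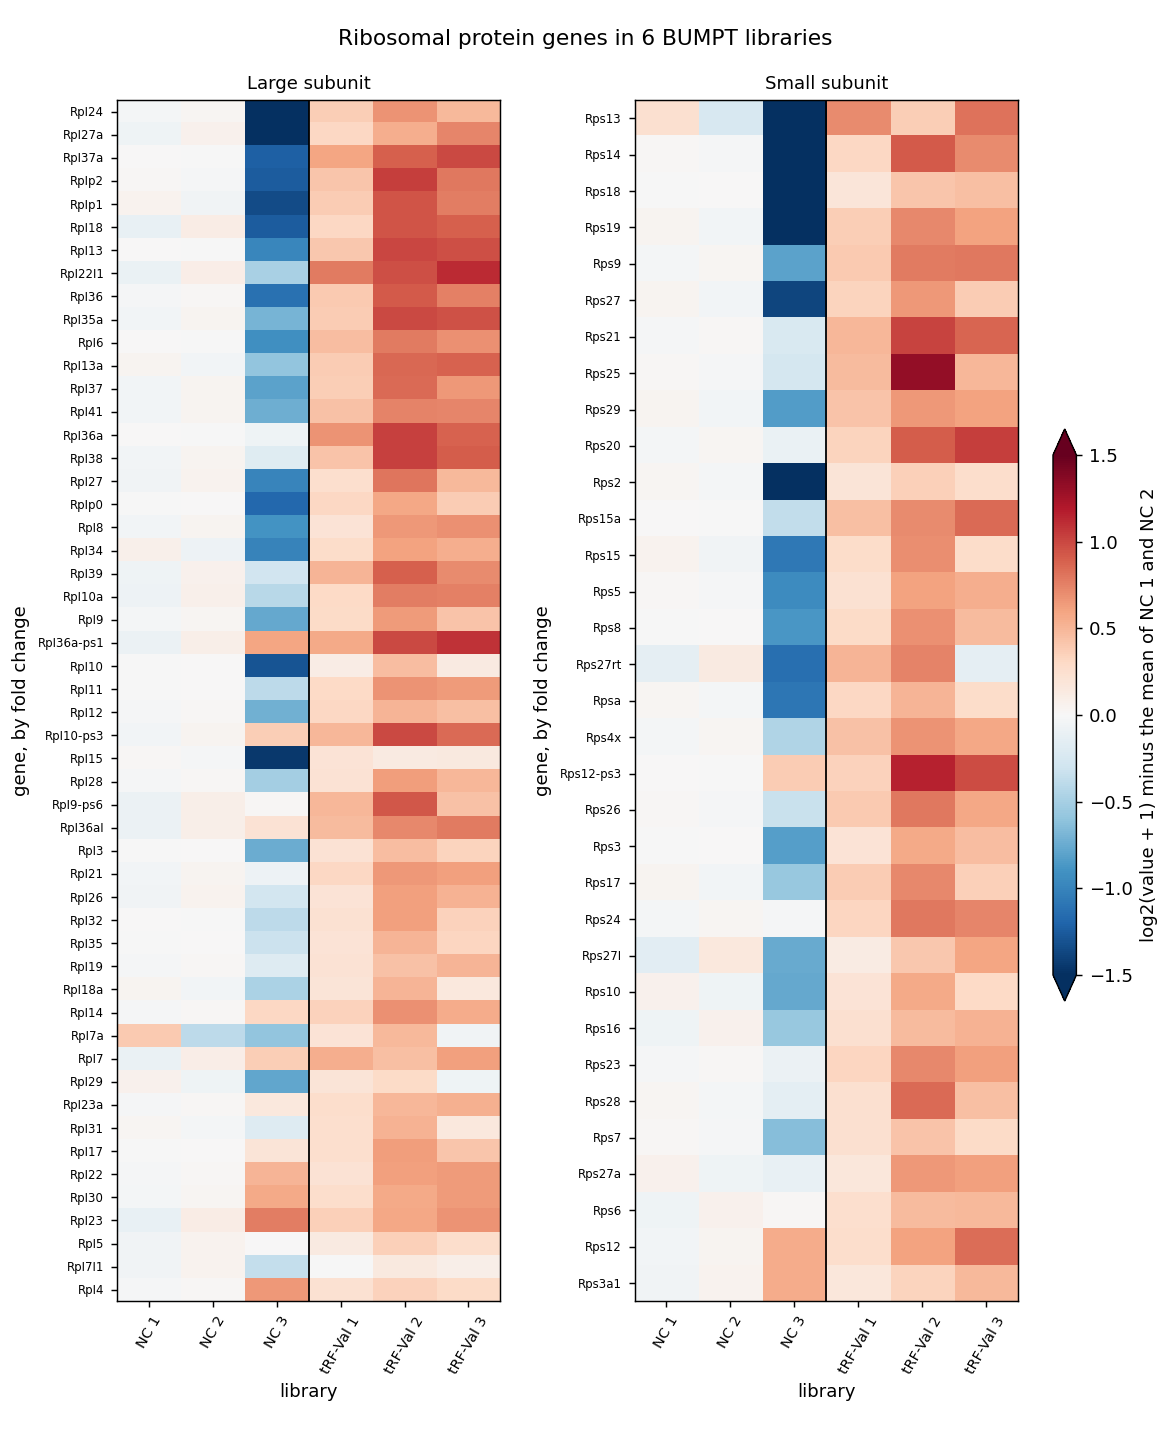
Each row is a ribosomal protein gene, ordered by fold change within the large and small subunit, and each column a library; colour gives log2(value + 1) minus the mean of NC 1 and NC 2, cut at 1.5 in both directions. The NC 3 column is blue for most genes and red for a few such as Rpl4, Rpl23 and Rps3a1, while the tRF-Val columns are red throughout most rows and palest in tRF-Val 1.

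The share of each library taken by these genes gives the same picture in 1 number per library. Of the mouse values, they held 13.1%, 13.2% and 9.73% across NC 1 to 3 and 15.0%, 18.2% and 17.3% across tRF-Val 1 to 3. All tRF-Val libraries were above all NC libraries, and the gap between tRF-Val 1 and NC 2 was smaller than that between tRF-Val 1 and tRF-Val 2. The tRF-Val mean was 16.9% ± 1.62 (SD, n = 3), which was 4.86 percentage points above the NC mean (SD 1.96, n = 3), with a two-sided exact permutation p of 0.1, the smallest that 3 against 3 libraries can give. With mitochondrial transcripts taken out of the denominator the means were 13.3% and 17.6%. Of the 100 genes with the highest mean value, 49 were members.

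The order of libraries was shared by most members. NC 3 was the lowest of the 6 libraries for 67 of them and tRF-Val 2 the highest for 60. Among the tRF-Val libraries, tRF-Val 1 was the lowest for 73 members. NC 1 and NC 2 lay within 10% of each other for 72 members, and the median gap between them was 4.71%. The median SD of log2 values over members was 0.35 across NC and 0.20 across tRF-Val.

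The large and small subunits were compared next. Large subunit genes had a median log2 fold change of 0.67 and small subunit genes 0.72, and without NC 3 these were 0.52 and 0.48. The sum of large subunit values divided by that of the small subunit was 1.56, 1.59 and 1.78 across NC and 1.58, 1.61 and 1.64 across tRF-Val. NC 3 lay above all other libraries and the remaining NC and tRF-Val values overlapped. The group means were 1.64 ± 0.118 and 1.61 ± 0.0291 (SD, n = 3 each; exact permutation p = 0.9, two-sided), which does not show that the ratios were equal. Without NC 3 the difference turned, from -0.027 to 0.032 on the log2 scale.

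**Figure D2:**
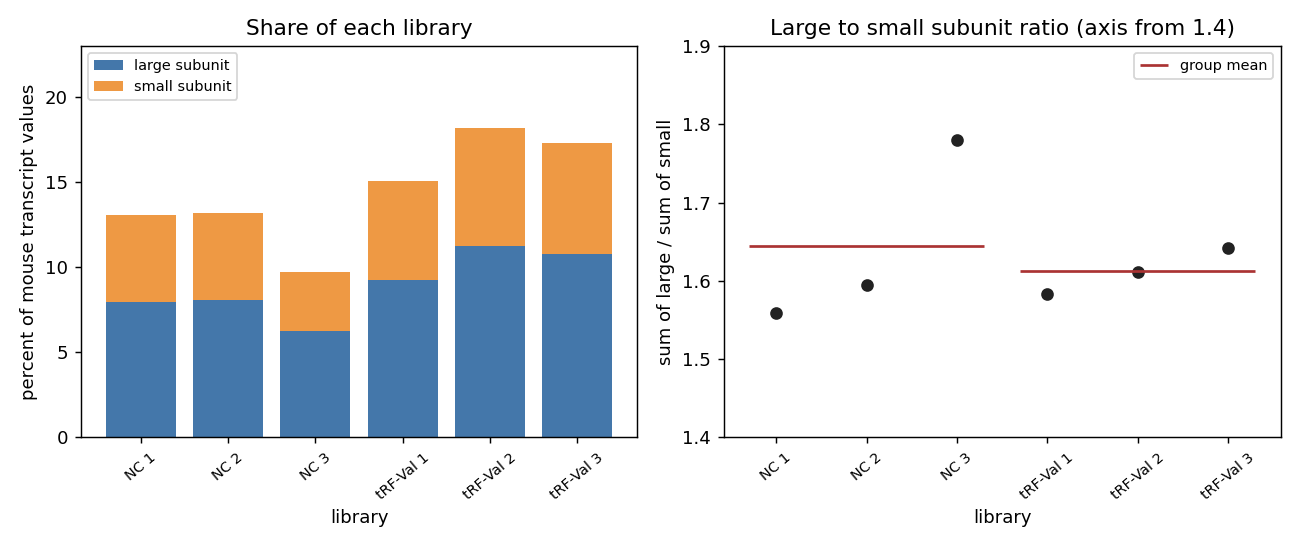
Left, the percent of mouse transcript values held by large (blue) and small (orange) subunit genes in each library, stacked from 0; right, the ratio of the 2 sums per library, with red lines for group means and an axis that begins at 1.4. Shares run from 9.73% in NC 3 to 18.2% in tRF-Val 2, while the ratio is 1.56 to 1.64 in every library but NC 3, at 1.78.

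Among large subunit proteins, the P-stalk genes had fold changes above the median of the large subunit, which for Rplp0 no longer held without NC 3. Rplp0 carries the Rplp1 and Rplp2 dimers, which recruit elongation factors to the ribosome. Rplp0 had values of 467, 468 and 206 across NC and 578, 699 and 607 across tRF-Val. Rplp1 had 1016, 948 and 388 across NC and 1280.3, 1888 and 1676 across tRF-Val. Rplp2 had 409, 399 and 170.0 across NC and 541, 829 and 697 across tRF-Val. For all 3 genes each tRF-Val library was above each NC library, and NC 3 was less than 0.5 of the mean of NC 1 and NC 2. Their log2 fold changes were 0.81 ± 0.34, 1.14 ± 0.40 and 1.16 ± 0.38 (standard error, n = 3 each; limma adjusted p 0.185, 0.139 and 0.127). Without NC 3 they were 0.42, 0.70 and 0.75, beside a large subunit median of 0.52.

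Rpl5 and Rpl11 form, with 5S ribosomal RNA, the particle that binds MDM2 and so can stabilise p53. Rpl5 was 498, 539 and 522 across NC and 571, 662 and 621 across tRF-Val, a narrow separation with a log2 fold change of 0.25 ± 0.13 (adjusted p 0.265). Rpl11 was 389, 391 and 298 across NC and 481, 623 and 608 across tRF-Val. Its log2 fold change was 0.67 ± 0.18 (adjusted p 0.104), so the gene of one partner had a value near the group's median and that of the other was among the 4 smallest of the large subunit. The difference between these fold changes was not tested.

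The largest fold changes were set by NC 3. Rpl24, whose protein sits at the bridge between the subunits, was 713, 744 and 52.6 across NC and 940.2, 1159.7 and 1021 across tRF-Val. Its log2 fold change of 1.76 ± 1.01 (adjusted p 0.289) was 0.51 without NC 3. Rpl27a was 475, 520.0 and 94.4 across NC and 616, 728 and 827 across tRF-Val, giving 1.33 with NC 3 and 0.53 without it. In both genes the low value of NC 3 made up most of the group difference.

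The small subunit had the same kind of gene. Rps18, of the head of the subunit, was 583, 589 and 60.6 across NC and 666, 783 and 799 across tRF-Val. Rps14, a protein of the platform known from 5q- syndrome in humans, was 563, 551 and 107 across NC and 693, 1051 and 914 across tRF-Val. Rps19, the protein most often mutated in human Diamond-Blackfan anaemia, was 467, 444 and 110.4 across NC and 586, 752 and 691 across tRF-Val. NC 3 was the low library in each of them. Rps13, which lies near the subunit interface, was 305, 218 and 36.6 across NC and 420.3, 333 and 452 across tRF-Val. The log2 fold changes of Rps18, Rps14, Rps19 and Rps13 were 1.43, 1.44, 1.24 and 1.55, and 0.35, 0.65, 0.56 and 0.63 without NC 3. These 4 genes with Rpl24 and Rpl27a were the members in which 1 library lay below 25% of the median of the 6, and 11.1% of all genes had such a library.

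NC 3 was not low in every member. It was below both other NC libraries for 67 members and above both for 14, against 57.6% and 32.6% of all genes. Its ratio to the mean of NC 1 and NC 2 had a median of 0.688 and ran from 0.0722 for Rpl24 to 1.70 for Rpl23, and 20 members were below 0.5. Spearman's rho of that ratio with GC content was -0.41 across the 86 members and -0.65 across all genes, with all points from the same 3 libraries, and with length it was 0.093 across the members. The 43 members with the higher GC content had a median ratio of 0.581 and the other 43 had 0.826.

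**Figure D3:**
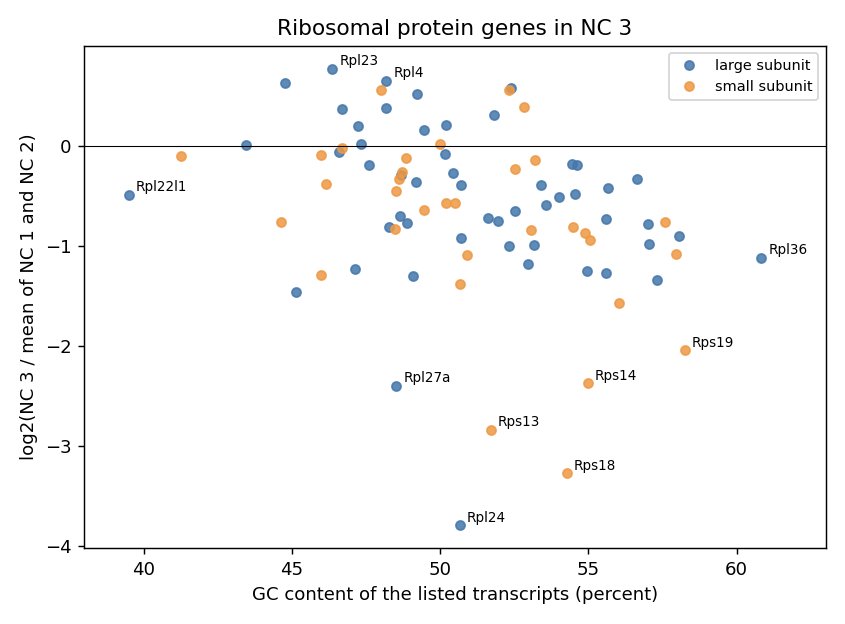
Each point is a ribosomal protein gene, with the GC content of its listed transcripts in percent on the x axis and log2 of NC 3 over the mean of NC 1 and NC 2 on the y axis; blue marks the large and orange the small subunit. Points fall with GC content (rho -0.41), and the 6 labelled genes at the bottom, Rpl24, Rps18, Rps13, Rpl27a, Rps14 and Rps19, lie below the rest at GC contents near those of other members.

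Several of the members with the smallest fold changes had a high value in NC 3. Rpl5 and Rpl7l1 also had small fold changes, but NC 3 was not their highest NC library. Rpl4, a large protein that lines the exit tunnel, was 1141, 1172 and 1815 across NC and 1352, 1469.9 and 1412 across tRF-Val. Rps3a1 was 448, 484 and 684 across NC and 526, 586 and 650.2 across tRF-Val. Rpl23, a protein of the subunit interface, was 603, 699 and 1110.0 across NC and 832, 975 and 1037 across tRF-Val. These were the 3 members with their highest value in NC 3, where 25.9% of all genes had theirs. Their log2 fold changes were 0.070, 0.14 and 0.28, and 0.29, 0.33 and 0.54 without NC 3. The sign of Rpl4 turned when NC 1 or NC 2 was left out, to -0.048 and -0.029, and that of all 3 turned under quantile normalization, to -0.20, -0.31 and -0.14.

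**Figure D4:**
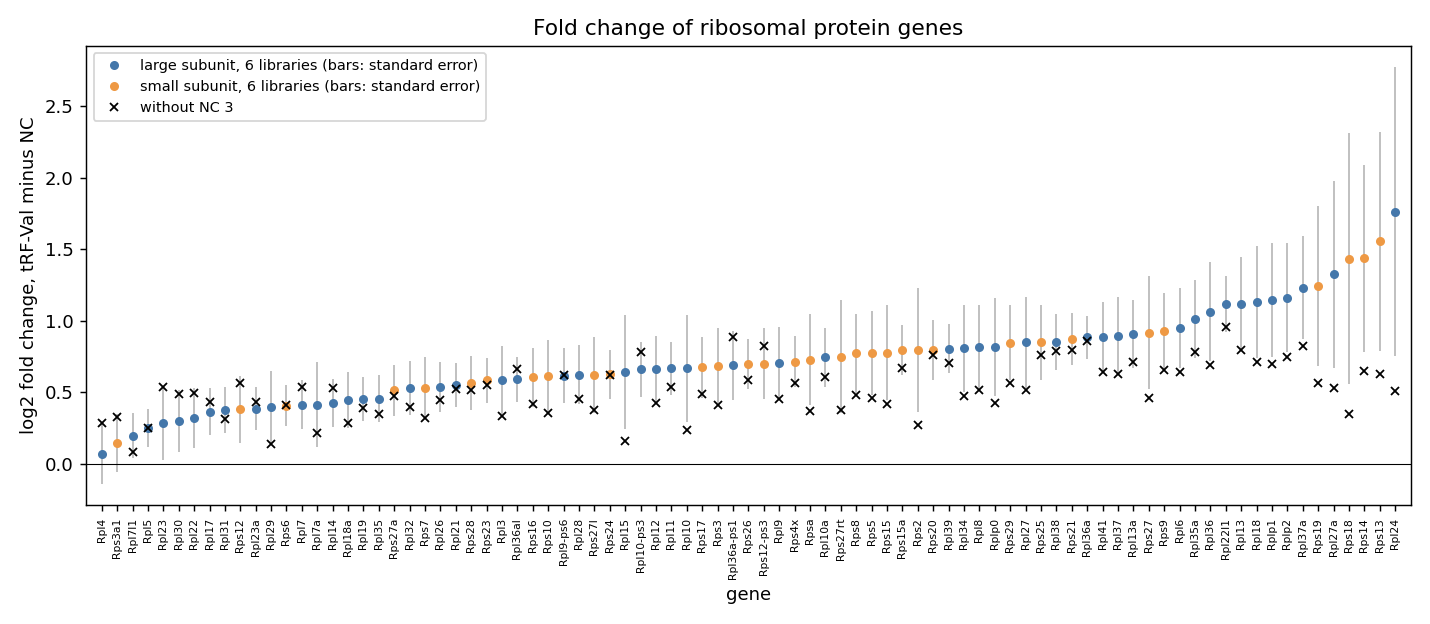
Log2 fold change, tRF-Val minus NC, of ribosomal protein genes in rising order, with standard errors as bars (blue, large subunit; orange, small subunit) and crosses for the fit without NC 3. All points lie above 0, from 0.070 for Rpl4 to 1.76 for Rpl24. Crosses reach only 0.95 at the top, for Rpl22l1, while at the bottom both ranges begin at similar values.

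Rpl36a had the smallest p of the members, with NC values that were close to each other. Rpl36a (gene on the plus strand of chrX:134585654-134588062) was 391, 391 and 374 across NC and 623, 800.1 and 723 across tRF-Val. Its log2 fold change was 0.88 ± 0.15 (limma adjusted p 0.0630), and 0.86 without NC 3 (adjusted p 0.0409). Rpl37a, a zinc-finger protein of the large subunit, was 472, 470.2 and 201 across NC and 709.9, 876 and 939 across tRF-Val. Its fold change was 1.23 ± 0.36 (adjusted p 0.111), and 0.82 without NC 3 (adjusted p 0.0458). After the trend with length was removed the 2 genes had 0.18 and 0.55, with adjusted p of 0.518 and 0.260. Rpl6 was 581, 581 and 308 across NC and 802, 997 and 937 across tRF-Val. Rps29 was 736, 691 and 397 across NC and 962, 1121 and 1087 across tRF-Val. Rps4x, the X-linked gene of a small subunit protein, was 868, 904 and 649.8 across NC and 1203, 1414 and 1321 across tRF-Val. In all 3 the tRF-Val libraries lay above NC 1 and NC 2 by more than those 2 differed. Their choice by the fit without NC 3 favours such a gap, so it adds no separate evidence.

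The small subunit also holds proteins with known roles in signalling and adhesion. Rps6, the substrate of S6 kinase, was 1313, 1433 and 1387 across NC and 1638, 1914 and 1927 across tRF-Val. Its groups did not overlap and NC 3 was not low, with a log2 fold change of 0.40 ± 0.14 (adjusted p 0.142), which turned to -0.15 with the trend with length removed. Rps3, which lines the entry of the messenger RNA channel, was 439, 439.6 and 247 across NC and 504, 651 and 606 across tRF-Val (0.69 ± 0.26, adjusted p 0.163, and 0.41 without NC 3). Rpsa, also known as the laminin receptor, was 477, 455 and 218 across NC and 579, 662 and 563 across tRF-Val (0.73 ± 0.32, adjusted p 0.197, and 0.36 without NC 3). Rps24 was 878, 910.4 and 881 across NC and 1122, 1554 and 1483 across tRF-Val, with 0.62 ± 0.17 (adjusted p 0.103). In each of these 4 genes tRF-Val was higher without overlap, as in 73 of the 86 members and 20.3% of all genes.

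Levels differed widely among members. On the per-length scale the structural proteins spanned 15.6-fold in mean value, although the ribosome holds equal copies of nearly all of them. The highest means were 1911 for Rpl23a, 1864 for Rpl8 and 1689 for Rpl17 in the large subunit, and 1602 for Rps6, 1234 for Rps15 and 1138 for Rps24 in the small one. Rpl23a was 1572, 1621 and 1778 across NC and 1924, 2253 and 2319.5 across tRF-Val. Rpl8 was 1584, 1674 and 872 across NC and 1872, 2559.6 and 2625 across tRF-Val. Rps15 was 1174, 1098 and 538 across NC and 1376, 1848 and 1373 across tRF-Val. Rpl23a was thus high in NC 3 where Rpl8 and Rps15 were low. Across the 86 members, Spearman's rho between log2 fold change and mean level was -0.045, a description across genes of the same libraries.

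The lowest structural members were measured mainly through long transcripts. Rps15a and Rps20, chosen after their values were seen, were the 2 members whose listed transcripts were longer than the median of all genes, at 4129 and 3706 bases. Rps20 had 1 listed transcript, and 1 transcript of 5179 bases made up 49.9% to 78.3% of Rps15a. Rps15a was 97.2, 96.1 and 74.4 across NC and 133, 158 and 174 across tRF-Val, and Rps20 was 96.3, 100.1 and 91.6 across NC and 124, 185 and 203 across tRF-Val. Their log2 fold changes of 0.79 and 0.80 were near those of short members. With the trend with length removed, Rps15a had 1.07 (adjusted p 0.108) and Rps20 had 1.02 (adjusted p 0.155). The reads behind these long annotated transcripts were not seen here, so which part of them was covered was not tested.

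Relative to the group's own sum, some members held a larger percent in tRF-Val and others a smaller one. Each member was taken as a percent of all ribosomal protein values in its library. For 13 members the tRF-Val percentages lay above all NC ones and for 13 below. On the same scale 2.68% of all genes were higher and 50.5% lower, since the sum itself was higher in tRF-Val. With NC 3 left out the counts were 21 and 25, against 4.23% and 64.6%. Among the larger were Rpl37a, Rpl22l1, Rplp2 and Rplp1, with ratios of tRF-Val to NC of 1.45, 1.38, 1.38 and 1.35. Among the smaller were Rpl4, Rps3a1, Rpl7l1 and Rpl5, with 0.624, 0.665, 0.728 and 0.745. Without NC 3 these ran 1.24, 1.36, 1.18 and 1.14, and 0.855, 0.880, 0.739 and 0.832.

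Rpl22l1 had the smallest limma p among the 9 paralogs, relatives and retrocopies. Its protein can replace Rpl22 in the large subunit, and in mouse Rpl22 represses the Rpl22l1 messenger RNA. Rpl22l1 (plus strand, chr3:28805436-28807424) was 147, 168 and 113 across NC and 270.2, 308 and 344 across tRF-Val. Its log2 fold change was 1.11 ± 0.20 (limma adjusted p 0.0670), and 0.95 without NC 3 (adjusted p 0.0387). Rpl22 was 127, 130.4 and 185 across NC and 150.3, 199 and 201 across tRF-Val, so its groups overlapped through NC 3. As a percent of Rpl22, Rpl22l1 was 116, 129 and 61.0 across NC and 180, 155 and 171 across tRF-Val. Every tRF-Val value lay above every NC value (exact permutation p = 0.1, the smallest possible; 0.30 adjusted over 9 pairs). After removal of the trend with length, the fold change of Rpl22l1 was 0.42 with an adjusted p of 0.192.

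Rpl36al, a paralog of Rpl36a, was lower in tRF-Val as a percent of its main copy. Its own values were 371, 421 and 458 across NC and 551, 652 and 681 across tRF-Val, a fold change of 0.59 ± 0.16 (adjusted p 0.101). As a percent of Rpl36a it was 94.8, 108 and 122 across NC and 88.5, 81.5 and 94.2 across tRF-Val, below every NC value (exact permutation p = 0.1; 0.30 adjusted over 9 pairs). Rps27l, a paralog of Rps27 known as a p53 target, was 186, 232 and 123 across NC and 225, 275 and 313 across tRF-Val, and its groups overlapped. Rps27 itself was 927, 880.3 and 347 across NC and 1143, 1414 and 1180.4 across tRF-Val. Rps27l as a percent of Rps27 overlapped between the groups, at 20.1 to 35.4 across NC and 19.5 to 26.5 across tRF-Val. Rpl7l1, a relative of Rpl7 that acts in the assembly of the large subunit, was 71.9, 77.0 and 58.0 across NC and 74.1, 82.6 and 79.3 across tRF-Val. Its main copy Rpl7 was 524, 605 and 730.4 across NC and 823, 769.7 and 864 across tRF-Val. The ratio of group means was 1.14 for Rpl7l1 and 1.32 for Rpl7.

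**Figure D5:**
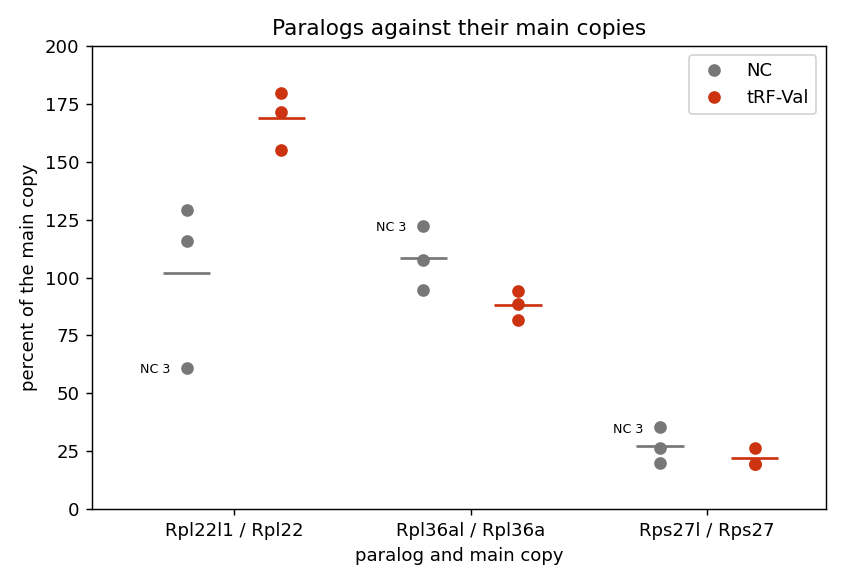
Level of 3 paralogs as a percent of the main copy, 1 point per library, with NC in grey, tRF-Val in red, horizontal lines for group means and NC 3 labelled. Rpl22l1 is at 155 to 180 in tRF-Val and at 61.0 to 129 in NC, Rpl36al is lower in tRF-Val than in NC, and Rps27l overlaps.

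Retrocopies, processed copies of a messenger RNA inserted elsewhere in the genome, were listed at low values. Their sequence is close to that of the main copy, so reads may be shared between them and these values are uncertain, as are those of the 60 members with a named pseudogene in the annotation. Rpl10-ps3 was 48.1, 51.4 and 64.4 across NC and 70.5, 100.1 and 90.7 across tRF-Val. Rps12-ps3 was 47.4, 47.3 and 61.7 across NC and 60.3, 107 and 94.1 across tRF-Val. Rpl36a-ps1, Rps27rt and Rpl9-ps6 had means of 18.9, 12.5 and 6.23 over the 6 libraries. For Rpl10, whose protein joins last in the maturation of the large subunit, the values were 410.3, 412 and 167 across NC and 444, 566 and 452 across tRF-Val. Rpl10-ps3 as a percent of it was 11.7, 12.5 and 38.5 across NC and 15.9, 17.7 and 20.1 across tRF-Val, so NC 3 was the extreme library. Rps12-ps3 as a percent of Rps12 was 6.73, 6.34 and 5.77 across NC and 6.93, 9.65 and 7.29 across tRF-Val, groups that did not overlap, with a two-sided exact permutation p of 0.1, or 0.30 adjusted over 9 pairs. Rps12 was 704, 745 and 1069.6 across NC and 869.8, 1103 and 1292 across tRF-Val. Rpl9 was 883, 914 and 527 across NC and 1099.5, 1396 and 1207 across tRF-Val. Rpl17, one of the most abundant members, was 1400.4, 1409.7 and 1612 across NC and 1671, 2175 and 1868 across tRF-Val. NC 3 was the highest NC library for Rps12 and Rpl17 and the lowest for Rpl9.

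Several members were split over transcripts in a way that differed between libraries. The 86 genes had 215 transcript rows, 37 with 1 row and 49 with several, and in 9 the most abundant transcript was not the same in all libraries. ENSMUST00000220070 of Rps12 was 7.11%, 6.61% and 14.2% of its gene across NC and 37.8%, 4.69% and 55.5% across tRF-Val, so it was high in tRF-Val 1 and 3 and low in tRF-Val 2. Rpl19 and Rps27a, chosen after their values were seen, differed in NC 3. ENSMUST00000017548 of Rpl19 was 66.6%, 73.6% and 26.2% across NC and 82.2%, 62.9% and 53.8% across tRF-Val. ENSMUST00000102844 of Rps27a was 62.7%, 54.7% and 28.7% across NC and 61.4%, 60.8% and 60.1% across tRF-Val. ENSMUST00000074085 of Rpl10 was 61.4%, 64.3% and 12.8% across NC and 63.5%, 71.8% and 59.3% across tRF-Val. With the most abundant transcript in place of the gene sum, the median fold change of members was 0.72 and the sign of Rps12 turned to -0.13.

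Fau and Rack1 encode further proteins of the ribosome and fall outside the naming rule. Fau is made as a fusion with a ubiquitin-like protein, and Rack1 is a scaffold on the small subunit. Fau was 829.5, 851 and 609 across NC and 1035, 1458 and 1474 across tRF-Val. Rack1 was 569, 577 and 216 across NC and 694, 861 and 771 across tRF-Val. Groups did not overlap for either gene, with log2 fold changes of 0.79 and 0.90 and limma adjusted p of 0.105 and 0.202. Without NC 3, the low library in both, they were 0.64 and 0.43.

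Genes that share the TOP class or act on it were read beside them. Of 18 other TOP genes, mainly translation factors, 14 had a positive fold change, 0 passed the test and 3 had an unadjusted limma p under 0.05, all higher, against 12.2% of all genes. Their median was 0.27, and 0.21 without NC 3, but with the trend with length removed it turned to -0.057. Groups did not overlap for 7 in the higher and 1 in the lower direction, against 20.3% and 22.1% of all genes. Eif3f, a subunit of initiation factor eIF3, had the smallest p of them, with 85.7, 84.8 and 53.0 across NC and 109.9, 126 and 119.7 across tRF-Val and a fold change of 0.69 ± 0.22 (adjusted p 0.121). Of 14 genes of the mTOR pathway, LARP1 and MYC, 8 were positive, 0 passed and 2 had an unadjusted p under 0.05, both lower, a share near the 15.6% of all genes. Their median was 0.15, and it turned to -0.18 without NC 3 and was 0.25 with the trend with length removed. Rictor, a subunit of mTOR complex 2, was 5.01, 5.00 and 5.70 across NC and 3.71, 2.77 and 2.92 across tRF-Val, a fold change of -0.60 ± 0.17 (adjusted p 0.109). Myc, a factor that drives transcription of ribosomal protein genes, was 56.9, 65.4 and 59.1 across NC and 48.9, 47.0 and 50.3 across tRF-Val, below NC in all libraries, with -0.30 ± 0.13 (adjusted p 0.185). Mtor was 8.54, 8.18 and 4.78 across NC and 9.76, 10.3 and 8.48 across tRF-Val, and Larp1 was 45.8, 48.3 and 17.9 across NC and 44.5, 52.8 and 46.5 across tRF-Val. Both overlapped between the groups. Of 7 chaperones dedicated to single ribosomal proteins, 4 were positive, 0 passed and 2 had an unadjusted p under 0.05, both higher, against 12.2% of all genes. Their median was 0.36, with 0.24 without NC 3 and 0.12 with the trend with length removed. Pdcd2l, a relative of the Rps2 chaperone PDCD2, was 7.66, 7.22 and 6.70 across NC and 9.59, 15.0 and 12.9 across tRF-Val, with 0.70 ± 0.20 (adjusted p 0.107).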

How the data were processed

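The tools named in the submitters' processing notes are cutadapt, HISAT2 2.1.0 and StringTie, and the build named is the human GRCh38. Mouse transcript IDs fill 21603 of the 30813 rows, and the 9210 rows with human IDs were not used. Those summed to 53290, 48563 and 47019 across NC and 41480, 46739 and 47372 across tRF-Val. The mouse rows summed to 387611, 388274 and 389669 across NC and 421201, 444539 and 435472 across tRF-Val, so mouse totals were higher in each tRF-Val library. The protocol text in the labels describes joint tissue, while each sample is labelled as a kidney cell line. The deposited signal is 1 abundance per transcript and library, scaled by the authors, either FPKM or TPM (the sources do not say which). Read numbers cannot be had from it, which precludes a count model and leaves the depth and its error unknown.

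IDs were matched without version to GENCODE M21 on GRCm38 (21558 matched, 45 not), and values were added per gene symbol. Log2(value + 1) of the 10405 genes with a mean of at least 1 was fitted by group in limma 3.58.1 (R 4.3.3), using trend and robust moderation, without covariates. Tests are two-sided, with Benjamini-Hochberg adjustment over all genes and a threshold of 0.05. Length trends were removed per library by loess (span 0.3). Shares and ratios were tested by exact permutation. The scripts were tested on simulated data.

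Members and gene lists were chosen with earlier results of these data known. Named were members that passed, the 4 largest and 4 smallest fold changes, 3 highest and 2 lowest levels per subunit, Rplp0, Rplp1, Rplp2, Rpsa, Rpl5, Rpl11, Rps3 and Rps6, paralogs and relatives with their main copies, members with 1 library below 25% of the median, Fau, Rack1, and from each other list the smallest p with Myc, Mtor and Larp1. Some genes of the rule are not reported here, singly or in the plots, but stay in the sums and counts.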

Additional observations from a re-analysis of the deposited data

How the results depend on the processing

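Under all 21 alternatives the median fold change of the ribosomal protein genes kept its direction, and 0 members were called lower. Some of them could not change this median: limma without trend, without robust moderation or with the replicate block, no level filter, and a mean of at least 5. For single genes, 52 were followed, of which 13 of 1091 values newly passed the threshold, all with NC 3 left out, and 53 turned sign. The median over members moved from 0.69 to 0.14 with the length trend removed, 0.12 with length and GC trends removed, 0.12 with the length trend removed and NC 3 left out, 0.32 under quantile normalization, 0.44 without mitochondrial transcripts and 0.32 with those removed and NC 3 left out. In the same order it was 0.14, 0.12, 0.16, 0.32, 0.41 and 0.32 for the large subunit and 0.15, 0.12, 0.064, 0.30, 0.46 and 0.29 for the small. Both settings without mitochondrial transcripts also scaled the remaining mouse totals to be equal. Members whose groups did not overlap, in either direction, numbered 22, 26 and 41 under the 3 corrections for length. Under quantile normalization they numbered 30, against 73 without these changes. The 73 were all higher, where 20.3% of all genes were higher and 22.1% lower. The corrections for length gave 21 higher and 1 lower, 22 and 4, and 35 and 6. For all genes these were 18.9% and 15.7%, 19.9% and 14.8%, and 28.5% and 20.8%. Quantile normalization gave 29 higher and 1 lower, against 20.9% and 21.3% of all genes. With each library left out in turn the median ran from 0.51 to 0.82, from 0.52 to 0.76 for the large and 0.48 to 0.83 for the small subunit, the count without overlap from 73 to 81, the members called higher from 0 to 6, the share difference from 3.73 to 5.76 percentage points and the log2 ratio of large to small from -0.064 to 0.032. The 6 calls came from leaving out NC 3, where 286 genes in all were called higher and 316 lower. With mitochondrial transcripts removed as well, 8 members were called higher, where 205 of 10412 genes were called higher and 845 lower. With the length trend removed and NC 3 left out, 0 members were called, where 53 genes in all were higher and 54 lower. The alternatives that leave out NC 3 together with another change were chosen after seeing the data.

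Over all genes, 6 were called higher and 21 lower. These counts were 15 higher with a common median, 16 higher with length and GC trends removed, 53 and 54 with length removed and NC 3 left out, 1 and 1 with a mean of at least 5, 205 and 845 with mitochondrial transcripts removed and NC 3 left out, 31 and 84 with the most abundant transcript, 0 and 0 with a pseudocount of 0.01, 2 and 3 with 0.1, 22 and 49 under quantile normalization, and 23 and 186 without mitochondrial transcripts. Without trend 36 were lower and without robust moderation 32. With each library left out they ran from 0 to 286 and from 3 to 316, the highest of both without NC 3. With the replicate number as a block, 0 genes were higher and 0 lower. An unadjusted p under 0.05 in the higher direction was then reached by 48 members, against 57 without the block. The background over all genes at that threshold was not determined with the block, so the 48 cannot be set against it. The share and the ratio differed under the block by 4.86 percentage points and -0.027, with paired exact permutation p of 0.25 and 1.0. The value of 0.25 is the smallest that this paired test can give with 3 libraries a group. Deviations of same-numbered libraries had correlations of -0.030, 0.016 and -0.0095, so the numbers are not taken to pair the libraries.

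Signs that turned were as follows, each a log2 fold change. With length and GC trends removed, they were Rps12 -0.37, Rps3a1 -0.29, Rpl23a -0.25, Rps15 -0.18, Rpl4 -0.17, Fau -0.16, Rpl17 -0.13, Rps6 -0.12, Rps12-ps3 -0.089, Rpl23 -0.081, Rpl36al -0.068, Rpl11 -0.029, Rpl8 -0.0084 and Rictor 0.086. With the length trend removed, they were Rps3a1 -0.37, Rps12 -0.30, Rpl23a -0.30, Rpl4 -0.25, Rpl17 -0.23, Rpl23 -0.21, Rps6 -0.15, Rpl36al -0.095, Rps27l -0.072, Rpl7 -0.064, Rpl36a-ps1 -0.019 and Rpl9-ps6 -0.0060. With that and NC 3 left out, they were Rps27rt -0.19, Rpl10 -0.18, Rps18 -0.17, Rps27l -0.16, Rps15 -0.12, Rps27 -0.11, Rpl23a -0.083, Rps3a1 -0.031 and Rpl17 -0.0026. Quantile normalization gave Rps3a1 -0.31, Rpl5 -0.22, Rpl4 -0.20, Rpl23 -0.14, Rpl7 -0.046, Rpl7l1 -0.0046 and Rps12 -0.0010. Without mitochondrial transcripts Rpl4 was -0.19, Rps3a1 -0.11, Rpl7l1 -0.057 and Rpl5 -0.0090, and with NC 3 left out too Larp1 was -0.17, Rpl7l1 -0.12 and Mtor -0.016. The most abundant transcript gave Mtor -0.20 and Rps12 -0.13, and Rpl4 was -0.048 without NC 1 and -0.029 without NC 2. The cause of these changes was not tested. Depth is unknown, and 3 libraries a group limit the precision.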
